A study of Mus musculus with 2 samples.

Results

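The genes described here are the 5 G protein-coupled receptor genes Gpr15, Gpr18, Gpr34, Gpr55 and Gpr183, and the 2 regulator of G protein signalling genes Rgs1 and Rgs2. They were chosen by name as receptors and Rgs genes of mucosal lymphocytes, and are 7 of the 32285 gene rows of the deposited matrices. Their level and the share of cells in which they were found were compared between libraries, and between cells with at least 1 Cd8a UMI (Cd8a-positive) and cells with 0 (Cd8a-zero); a UMI, or unique molecular identifier, stands for 1 captured transcript.

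Cells of C57BL/6J mice aged 18 to 20 weeks were profiled in droplets (10x Genomics 3′ chemistry). A single library came from colon tumor (TIL) and 1 from normal colon tissue (IEL), and both were labelled γδ T lymphocytes; neither the number of animals nor a cell sort is given in the sources used here, and the protocol attached to both libraries speaks of tumor tissue. The TIL library held 13245 barcodes and 94953893 UMIs and the IEL library 9398 barcodes and 69414155 UMIs, with 33 barcode sequences in both. With 1 library per tissue there was no replicate check and no p-value; every interval below is a 95% interval that covers counting error only.

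G protein-coupled receptors are membrane proteins that sense lipids, chemokines and metabolites and pass the signal to heterotrimeric G proteins. Rgs proteins speed the hydrolysis of GTP on the G protein α subunit and so shorten that signal. In the gut mucosa, receptors of this family place lymphocytes in the epithelium or in lymphoid aggregates, and in mice Gpr18 and Gpr55 are known for their effects on the number and the movement of intraepithelial lymphocytes.

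After filtering, 11815 of 12407 TIL cells (95.2%) and 9085 of 9128 IEL cells (99.5%) lay in T cell-like clusters, with median UMI counts of 6386 in TIL and 6854 in IEL cells. The δ chain constant gene Trdc stood at 3947 UMIs per 1000000 (CPM) in TIL and 814 CPM in IEL T cell-like cells. The α chain constant gene Trac, of the αβ T cell receptor, stood at 102 CPM in TIL against 325 CPM in IEL cells, and Cd4 at 1.06 CPM in TIL against 0.103 CPM in IEL cells. Trac was not confined to cells without Trdc: in TIL IL-17-like cells, unthinned, Trdc was found in 99.5% and Trac in 36.1%. This covers that TIL subset alone, where Trac stood at 92.0 CPM, and not the IEL cells. A cell-wise rule for γδ cells, which asked for Cd3 and a δ or γ constant segment and no Trac UMI, kept 7584 TIL and 2003 IEL cells. The rule leaves out any γδ cell that carries a Trac UMI. Cd8a was found in 876 TIL cells (7.41%, 6.95 to 7.90) and in 6921 IEL cells (76.2%, 75.3 to 77.1). Trac was higher in Cd8a-positive than in Cd8a-zero cells, at 227 against 92.6 CPM in TIL (log2 ratio 1.29). In IEL it was 365 against 177 CPM (1.05). Trdc stood at 1691 CPM in Cd8a-positive and 4116 CPM in Cd8a-zero TIL cells, and at 807 and 842 CPM in IEL cells. Whether αβ T cells make up part of the Cd8a-positive cells was not tested. Cytotoxic-like clusters held 1076 TIL and 6797 IEL cells, and IL-17-like clusters 9583 TIL and 57 IEL cells. A level summed over a library therefore mixes the make-up of its cells with the level in each kind of cell.

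Gpr18 and Gpr183 are neighbours in the genome and differed between the libraries in opposite directions, so the sequences before their starts are shown, together with that of Gpr55, which varied along with Gpr18. Gpr18 (chr14:121911253-121915781) and Gpr183 (chr14:121952551-121965195) both lie on the minus strand of GRCm38, 36769 bases apart, and both lie inside Ubac2 on the plus strand without sharing an exon base with it. Each run below is the 250 bases before the RefSeq start (build GRCm38.p6), written 5′ to 3′ along the gene's minus strand, with ACCACA, the reverse complement of the RUNX core motif TGTGGT, in capitals.
Gpr18 (chr14:121915889-121916138): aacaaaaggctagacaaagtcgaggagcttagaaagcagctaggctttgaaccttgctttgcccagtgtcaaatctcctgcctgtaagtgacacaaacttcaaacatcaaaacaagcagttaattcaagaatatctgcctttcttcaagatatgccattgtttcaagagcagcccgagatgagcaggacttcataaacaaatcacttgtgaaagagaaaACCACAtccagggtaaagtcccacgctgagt
Gpr55 (chr1:85961056-85961305): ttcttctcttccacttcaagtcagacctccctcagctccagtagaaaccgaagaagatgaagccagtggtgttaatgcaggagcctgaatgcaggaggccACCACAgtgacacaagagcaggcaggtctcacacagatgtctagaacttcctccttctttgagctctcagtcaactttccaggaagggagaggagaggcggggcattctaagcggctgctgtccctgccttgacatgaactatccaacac
Gpr183 (chr14:121965194-121965443): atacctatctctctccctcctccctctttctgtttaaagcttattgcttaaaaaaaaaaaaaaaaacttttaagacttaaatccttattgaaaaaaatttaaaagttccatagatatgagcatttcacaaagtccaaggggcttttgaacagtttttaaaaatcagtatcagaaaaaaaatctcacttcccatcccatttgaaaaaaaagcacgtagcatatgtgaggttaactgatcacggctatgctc
The motif stood once before Gpr18, at bases -31 to -26 from the start, and once before Gpr55, at bases -150 to -145. Of 32841 promoter windows of this length, 14.05% held it on either strand. None of the other motifs searched on both strands, TGANTCA (AP-1), TGACGTCA (the cAMP response element), AGGTGTGA (T-box) and the NF-κB motif, was in these windows; they were in 6.75%, 1.55%, 1.12% and 1.41% of all windows. G and C made up 42.4% of the Gpr18 window, 52% of the Gpr55 window and 32% of the Gpr183 window, against a median of 52.4%. Promoter entries were matched for 5 of the 7 genes (Gpr15, Gpr18, Gpr55, Gpr183 and Rgs2), and not for Gpr34 and Rgs1. The Rgs2 window held none of these motifs, and the Gpr15 window held TGANTCA once and ACCACA at 2 places.

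The first comparison set TIL against IEL T cell-like cells. Gpr183, the receptor for oxysterols that guides lymphocytes to lymphoid tissue, was higher in TIL cells, while Gpr18, Gpr34, Gpr55 and Rgs1 were higher in IEL cells. Genes were called apart where they reached 20 CPM on either side, differed at least 2-fold and had a ratio interval that left out 1. Of the 7 genes, 6 reached 20 CPM, and 1 of them was higher and 4 were lower in TIL cells. Over all 6326 genes measured this way, 11.1% were higher and 13.8% lower in TIL cells.

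Gpr183 stood at 286 CPM in TIL cells (282 to 289) and 12.0 CPM in IEL cells (11.2 to 12.8), a 23.9-fold difference (log2 ratio 4.58, 4.48 to 4.68). After every cell was thinned to 2000 UMIs, a Gpr183 UMI was found in 38.1% of TIL cells (37.2 to 39.0) and 2.36% of IEL cells (2.06 to 2.70); without thinning the shares were 69.0% of TIL against 6.33% of IEL cells. By the size of its ratio Gpr183 ranked 107 from the top of all genes measured.

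Gpr34, a receptor for lysophosphatidylserine, stood at 9.21 CPM in TIL cells and 127 CPM in IEL cells (log2 ratio -3.78, -3.89 to -3.67), the widest gap among the genes that were lower in TIL. Gpr55, a receptor for lysophosphatidylinositol, stood at 48.7 CPM in TIL against 251 CPM in IEL cells (log2 ratio -2.36, -2.41 to -2.31). Gpr18, for which lipid ligands have been proposed, stood at 24.6 CPM in TIL against 91.3 CPM in IEL cells (log2 ratio -1.89, -1.96 to -1.82). The shares of cells at 2000 UMIs ran the same way. Gpr34 was found in 1.88% of TIL against 20.0% of IEL cells, Gpr55 in 8.62% of TIL against 37.2% of IEL cells, and Gpr18 in 4.62% of TIL against 15.9% of IEL cells; unthinned, Gpr34 was found in 5.25% of TIL against 47.7% of IEL cells, Gpr55 in 20.5% of TIL against 74.1% of IEL cells, and Gpr18 in 13.0% of TIL against 41.5% of IEL cells.

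Some of the low TIL shares lay close to those in cells of another kind in the same library. In the 232 TIL myeloid-like cells (median 7692.5 UMIs), the shares at 2000 UMIs were 0.952% for Gpr18 (0.116 to 3.40), 1.43% for Gpr34 (0.296 to 4.12) and 2.86% for Gpr55 (1.06 to 6.11). Over all TIL T cell-like cells the Gpr34 share, 1.88%, lies within that interval and is not set apart from the myeloid-like share. The TIL shares of Gpr18 and Gpr55 lay above their intervals. By cluster the Gpr34 share varied, so the myeloid-like share is not a floor common to all TIL cells. It was 0.0803% in IL-17-like cluster 3 and 0.142% in recirculating-like cluster 7, both under that interval, and 2.39% in IL-17-like cluster 2. In TIL cytotoxic-like cells alone the Gpr34 share, 9.86% (8.13 to 11.8), lay above the myeloid-like interval. In TIL IL-17-like cells the shares of Gpr18 (2.51%) and Gpr34 (1.06%) also lay within the myeloid-like intervals, and that of Gpr55 (6.51%, 6.02 to 7.02) overlapped its interval. The Gpr183 share was 10.0% in myeloid-like cells (6.30 to 14.9), and the share in TIL cytotoxic-like cells, 4.88% (3.67 to 6.35), and in TIL recirculating-like cells, 8.36% (6.42 to 10.6), was not above it; Gpr183, Rgs1 (58.6%) and Rgs2 (31.9%) are also known to be used by myeloid cells. The myeloid-like cells carried 1390.4 CPM of Il17a, a cytokine gene of T cells, and the part of free RNA or doublets in these shares was not tested. The IEL library held 1 myeloid-like and 20 epithelial-like cells, too few for such a share.

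Rgs1, which damps signals of Gαi- and Gαq-coupled receptors and is abundant in gut T cells, stood at 2559 CPM in TIL cells (2548 to 2570) and 6449 CPM in IEL cells (6430 to 6468; log2 ratio -1.33, -1.34 to -1.33). It was found in 89.7% of TIL against 96.9% of IEL cells at 2000 UMIs, and a cell in which it was found held on average 19.3 Rgs1 UMIs in TIL and 48.7 in IEL. Under the cell-wise γδ rule its log2 ratio was -0.86, which is under 2-fold. Rgs2, a regulator that prefers Gαq, stood at 691 CPM in TIL against 886 CPM in IEL cells, a difference under 2-fold (log2 ratio -0.36, -0.37 to -0.34), and was found in 61.7% of TIL against 71.8% of IEL cells.

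Immediate early and stress genes moved with the library too. Of 18 measured genes of that list, 0 were higher and 11 lower in TIL cells, with a median log2 ratio of -1.44, against 11.1% higher, 13.8% lower and a median of -0.10 over all genes. The 19 listed genes summed to 6586 CPM in TIL against 15556 CPM in IEL cells, and Fos stood at 169 CPM in TIL against 2163 CPM in IEL cells; Hspa1a (log2 ratio -5.65), Hspa1b (-5.20) and Hspb1 (-5.08) had the largest differences. The part of these genes in the Rgs1 and Rgs2 values was not tested.

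Gpr15, a homing receptor of colonic T cells, was almost not found. It had 11 UMIs in 11815 TIL cells (0.127 CPM, 0.0634 to 0.227) and 78 UMIs in 9085 IEL cells (1.14 CPM, 0.903 to 1.43). It never reached the 20 CPM minimum, and no comparison of it was counted. It had 0 UMIs in the 9583 TIL IL-17-like cells; 9539 of them reached 2000 UMIs, and a count of 0 among these allows a share of up to 0.0314% of cells with a Gpr15 UMI at that depth.

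The receptor genes overlap other genes on the opposite strand, and whether counting used strand or included introns is not given in the sources used here. Without strand, reads from shared exon bases cannot be told apart, nor, if introns were counted, reads from a gene that lies in an intron of its partner. Ubac2, which holds both Gpr18 and Gpr183, stood at 51.9 CPM in TIL against 227 CPM in IEL cells (log2 ratio -2.13), the same direction as Gpr18 and the opposite one to Gpr183. Gpr34 (chrX:13632089-13640858, plus strand) shares no exon base with Cask, which was at 5.85 CPM in TIL against 9.58 CPM in IEL cells. Gpr55 (chr1:85938318-85961007, minus strand) shares 71 exon bases with 4933407L21Rik, which had 7 UMIs in TIL and 3 in IEL cells. Gpr15 (chr16:58717433-58719070, minus strand) shares 204 exon bases with Cpox, which stood at 16.8 CPM in TIL against 19.6 CPM in IEL cells. Rgs1 (chr1:144242296-144249242) and Rgs2 (chr1:143999338-144004161) lie on the minus strand 238134 bases apart and overlap no annotated gene.

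**Figure D1:**
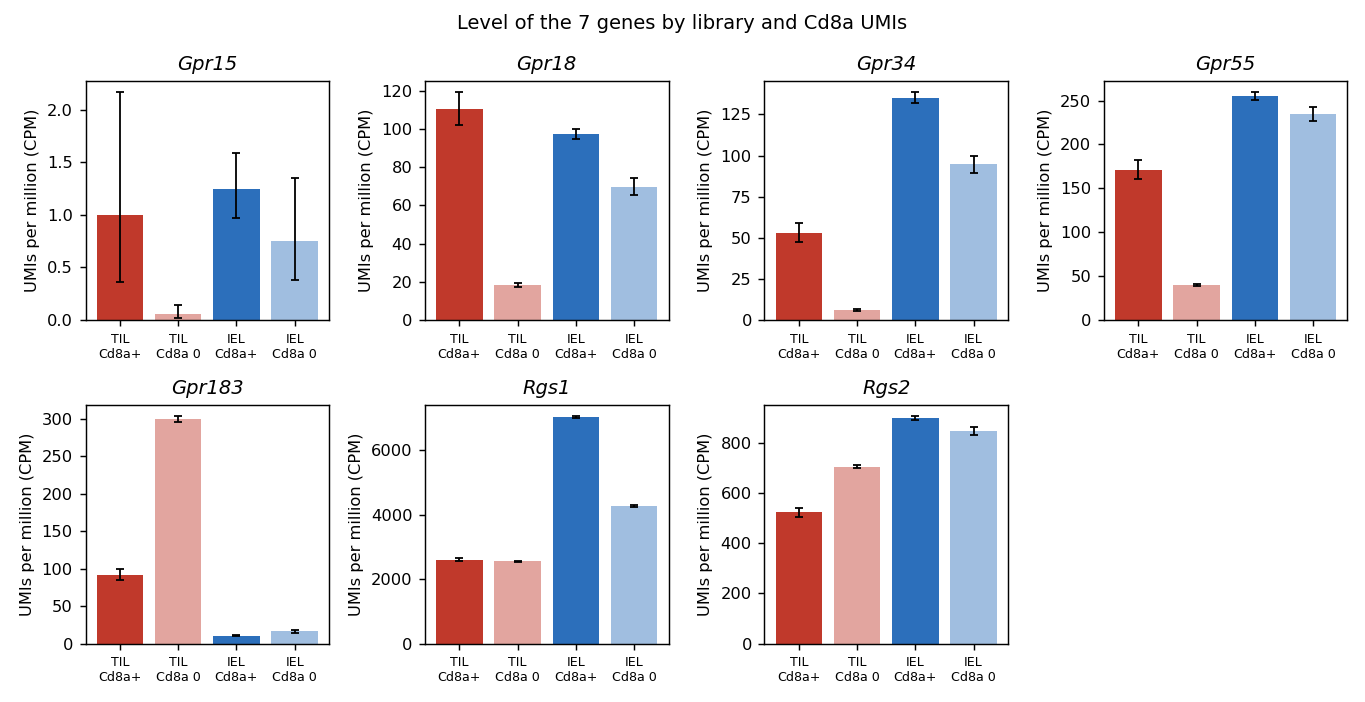
Level of each of the 7 genes in UMIs per 1000000 (CPM; linear axis from 0, a separate scale for each gene) in TIL (red) and IEL (blue) T cell-like cells, dark for Cd8a-positive and light for Cd8a-zero cells, with exact Poisson 95% intervals of the summed counts. Gpr18, Gpr34 and Gpr55 are low in TIL Cd8a-zero cells and Gpr183 is high there, while the IEL bars of these receptors differ less between the Cd8a classes.

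The next comparisons split each library by Cd8a, which encodes the α chain of the CD8 co-receptor carried by many intraepithelial lymphocytes. In TIL cells the split divided the receptors. Gpr18, Gpr34 and Gpr55 were higher and Gpr183 was lower in Cd8a-positive cells, so 3 of 6 measured genes were higher and 1 was lower; over all genes in this split, 6.45% were higher and 6.67% lower.

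Among TIL cells, Gpr34 stood at 52.9 CPM in Cd8a-positive and 5.95 CPM in Cd8a-zero cells (log2 ratio 3.15, 2.94 to 3.36). Gpr18 stood at 110.4 CPM in Cd8a-positive and 18.2 CPM in Cd8a-zero cells (2.60, 2.47 to 2.74), and Gpr55 at 171 CPM in Cd8a-positive and 39.6 CPM in Cd8a-zero cells (2.11, 2.01 to 2.21). Gpr183 ran the other way, with 92.3 CPM in Cd8a-positive and 300.1 CPM in Cd8a-zero cells (-1.70, -1.82 to -1.58). Rgs1 was at nearly the same level in both, 2604 CPM in Cd8a-positive and 2555 CPM in Cd8a-zero cells (0.03, 0.00 to 0.05), and Rgs2 was 523 CPM in Cd8a-positive and 704 CPM in Cd8a-zero cells (-0.43, -0.48 to -0.38).

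The TIL values were graded with the number of Cd8a UMIs. In the order 0, 1, and 2 or more Cd8a UMIs, Gpr18 stood at 18.2, 42.3 and 134 CPM, Gpr34 at 5.95, 21.5 and 63.6 CPM, and Gpr55 at 39.6, 75.5 and 204 CPM, while Gpr183 stood at 300.1, 214 and 50.9 CPM. The intervals of neighbouring classes did not overlap for any of these genes. The class with 1 Cd8a UMI held 204 cells and that with 2 or more held 672. In the same order, Il17a stood at 4781, 2649 and 305 CPM and Gzma at 3167, 5246 and 20644 CPM. The mix of cells thus changed along the same classes, and its part in the grading was not tested. Median UMI counts were 5786.5 in Cd8a-positive and 6449 in Cd8a-zero TIL cells.

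The Cd8a classes of TIL differed in the kind of cell they held. Of the 876 Cd8a-positive TIL cells, 78.2% lay in cytotoxic-like and 15.1% in IL-17-like clusters, whereas 86.4% of the 10939 Cd8a-zero TIL cells lay in IL-17-like and 3.57% in cytotoxic-like clusters. Within the TIL cytotoxic-like clusters, the interval of the Gpr183 ratio included 1 (33.8 CPM in 685 Cd8a-positive and 28.4 CPM in 391 Cd8a-zero cells; log2 ratio 0.25, -0.17 to 0.68). Gpr34 remained 2.58-fold higher there in Cd8a-positive cells (68.3 against 26.4 CPM in Cd8a-zero cells), and Gpr18 (140.2 against 92.6 CPM; log2 ratio 0.60) and Gpr55 (217 against 148 CPM; 0.55) were under 2-fold apart. Rgs1, level over the whole library, was 2750.1 CPM in Cd8a-positive and 1185 CPM in Cd8a-zero cytotoxic-like TIL cells (1.22, 1.16 to 1.27). These classes still differed in make-up, with Gzma at 21090 CPM in Cd8a-positive and 2297 CPM in Cd8a-zero cytotoxic-like TIL cells. At 2000 UMIs Cd8a was found in 92.2% of cells in cytotoxic-like cluster 9 and 35.1% in cytotoxic-like cluster 8. The part of this make-up in the Gpr34 and Rgs1 ratios was not tested.

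In IEL cells the same split gave 0 genes apart of 5 measured, against 0.640% of all genes higher and 0.674% lower. Gpr18 stood at 97.1 CPM in Cd8a-positive and 69.7 CPM in Cd8a-zero cells (log2 ratio 0.48, 0.38 to 0.58), Gpr34 at 135 CPM in Cd8a-positive and 94.6 CPM in Cd8a-zero cells (0.52, 0.43 to 0.60), and Gpr55 at 255 CPM in Cd8a-positive and 235 CPM in Cd8a-zero cells (0.12, 0.06 to 0.17). Rgs1 had the widest gap, 7041 CPM in Cd8a-positive and 4274 CPM in Cd8a-zero cells (0.72, 0.71 to 0.73), still under 2-fold, and Rgs2 was at 897 CPM in Cd8a-positive and 845 CPM in Cd8a-zero cells (0.09, 0.06 to 0.11). Gpr183 was below 20 CPM on both sides, with 10.7 CPM in Cd8a-positive and 16.7 CPM in Cd8a-zero cells. Of the 2164 Cd8a-zero IEL cells, 59.1% lay in 1 cluster of unnamed subset led by genes such as Id3, Tcf7 and Ighm, and 37.0% in cytotoxic-like clusters. Within the IEL cytotoxic-like clusters every receptor ratio was smaller, with log2 values of 0.11 for Gpr18, 0.12 for Gpr34 and -0.01 for Gpr55, and Rgs1 was at 0.26.

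**Figure D2:**
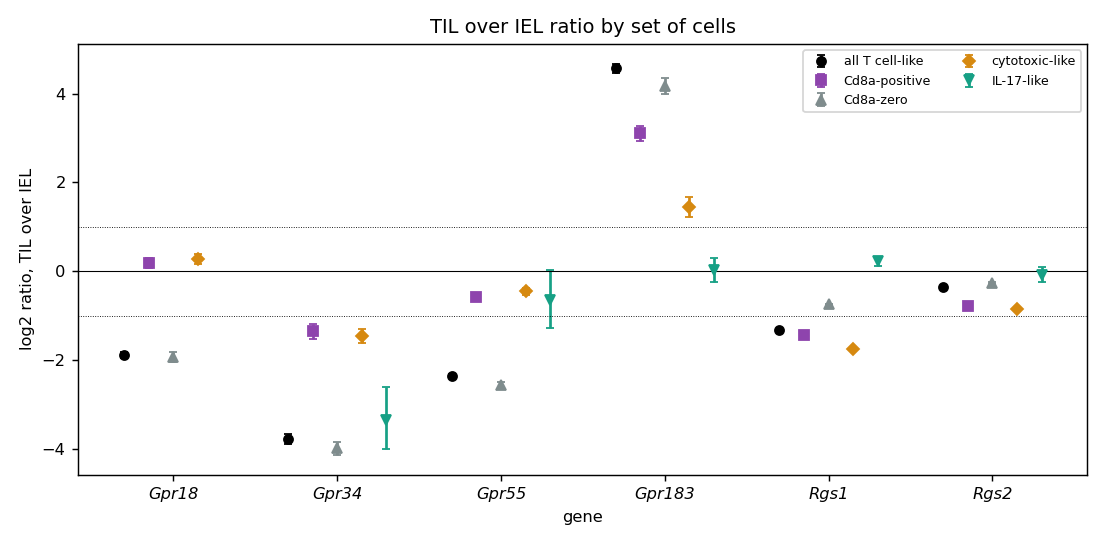
Log2 ratio of the level in TIL over IEL cells for the 6 genes that reached 20 CPM, in all T cell-like cells, Cd8a-positive cells, Cd8a-zero cells, cytotoxic-like clusters and IL-17-like clusters, with exact 95% intervals (counting error only) and dotted lines at 2-fold; the IL-17-like value of Gpr18 is left out because it fell under 20 CPM. Gpr18 is lower in TIL over all cells (-1.89) and slightly higher in TIL within Cd8a-positive (0.18) and cytotoxic-like cells (0.27), and Gpr183 is level between the libraries within IL-17-like cells (0.02).

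Within Cd8a-positive cells, Gpr18 and Gpr55 were less than 2-fold apart between the libraries. Among cells with a UMI of Cd8b1, the gene of the CD8 β chain, Gpr55 had a log2 ratio of -2.69 and Gpr18 of -0.64. Most of these TIL cells were not Cd8a-positive: of the 144 with a Cd8b1 UMI, 37 had a Cd8a UMI. In TIL, 227 of the 380 Cd8b1 UMIs came from recirculating-like cells, and in IEL 1388 of 1424 came from cytotoxic-like cells. Among Cd8a-positive cells, 1 of 6 measured genes was higher and 2 were lower in TIL, against 4.37% and 4.92% of all genes. Gpr18 was at 110.4 CPM in TIL against 97.1 CPM in IEL Cd8a-positive cells (log2 ratio 0.18, 0.07 to 0.30), and Gpr55 at 171 CPM in TIL against 255 CPM in IEL Cd8a-positive cells (-0.58, -0.67 to -0.48). Gpr34 (-1.35, -1.52 to -1.19) and Rgs1 (-1.43, -1.46 to -1.41) stayed more than 2-fold lower in TIL, and Gpr183 stayed higher (3.11, 2.94 to 3.28). Of the 557 Gpr183 UMIs of Cd8a-positive TIL cells, 328 came from the 204 cells with 1 Cd8a UMI. The Gpr183 log2 ratio was 2.24 among cells with 2 or more Cd8a UMIs, and 1.59 (1.31 to 1.86) among Cd8a-positive cytotoxic-like cells, with 33.8 CPM in TIL against 11.2 CPM in IEL cells. Among Cd8a-zero cells, 4 of 6 measured genes were apart, against 26.0% of all genes, with Gpr183 at 4.17, Gpr18 at -1.94, Gpr55 at -2.57 and Gpr34 at -3.99 on the log2 scale, while Rgs1 was under 2-fold (-0.74).

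The libraries were then compared within subset clusters. Because the 7 genes, Cd8a and Cd8b1 were kept out of the genes used for clustering, their levels by cluster are a description of cells grouped on other transcripts. The cytotoxic-like cells came mostly from clusters 8 and 9 in TIL and from clusters 15, 18 and 19 in IEL, so they are not the same clusters in both libraries. At 2000 UMIs Gzma was found in 48.5% of cells in TIL cluster 8 and 93.1% in TIL cluster 9. Those IEL clusters ran from 94.3% to 98.0%. IEL cluster 14, led by genes such as Id3 and Tcf7, was left out as unnamed. At a coarser resolution (Leiden 0.5) a cluster led by such genes, with 2266 IEL and 48 TIL cells, was named cytotoxic-like. The ratios below compare these unlike mixes of cells. Among cytotoxic-like cells, 1 gene was higher and 2 were lower in TIL, against 2.40% and 5.38% of all genes measured there.

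In cytotoxic-like cells, Gpr18 was at 122 CPM in 1076 TIL cells and 101 CPM in 6797 IEL cells (log2 ratio 0.27, 0.17 to 0.38), the reverse of its direction over all cells. Gpr55 was at 191 CPM in TIL against 261 CPM in IEL cells (-0.45, -0.53 to -0.37). Gpr34 was at 52.5 CPM in TIL against 144 CPM in IEL cells (-1.45, -1.61 to -1.30), and remained 2.74-fold lower. Rgs1 was at 2158 CPM in TIL against 7279 CPM in IEL cells (-1.75, -1.78 to -1.73), a wider gap than over all cells, and Rgs2 at 499.6 CPM in TIL against 902 CPM in IEL cells (-0.85, -0.90 to -0.80). Gpr183 was at 31.8 CPM in TIL against 11.7 CPM in IEL cytotoxic-like cells (1.45, 1.21 to 1.67). The share of TIL cytotoxic-like cells with a Gpr183 UMI was not above that of myeloid-like cells. Myeloid cells are known to use this gene, so their share cannot serve as its background. Beside the Gpr183 level, Il17a, a transcript of IL-17-producing cells, stood at 96.9 CPM in TIL against 0.335 CPM in IEL cytotoxic-like cells. The part of free RNA in either was not tested. The stress list summed to 5795 CPM in TIL against 15519 CPM in IEL cytotoxic-like cells, and its part in the Rgs1 and Rgs2 differences here was not tested.

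In IL-17-like cells Gpr183 was at a like level in both libraries. It stood at 330.1 CPM in the 9583 TIL cells (326 to 334) and 325 CPM in the 57 IEL cells (268 to 391), with a log2 ratio of 0.02 (-0.25 to 0.30), and at 2000 UMIs it was found in 44.5% of TIL cells (43.5 to 45.5) and 52.6% of IEL cells (39.0 to 66.0). The 817 Gpr183 UMIs of the IEL library included 113 from these 57 cells. Gpr34 differed in the same cells, with 5.38 CPM in TIL against 54.7 CPM in IEL cells, the last from 19 UMIs (log2 ratio -3.35, -4.01 to -2.60). Rgs1 (2767 CPM in TIL, 2375 CPM in IEL; 0.22) and Rgs2 (726 CPM in TIL, 766 CPM in IEL; -0.08) were within 2-fold.

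**Figure D3:**
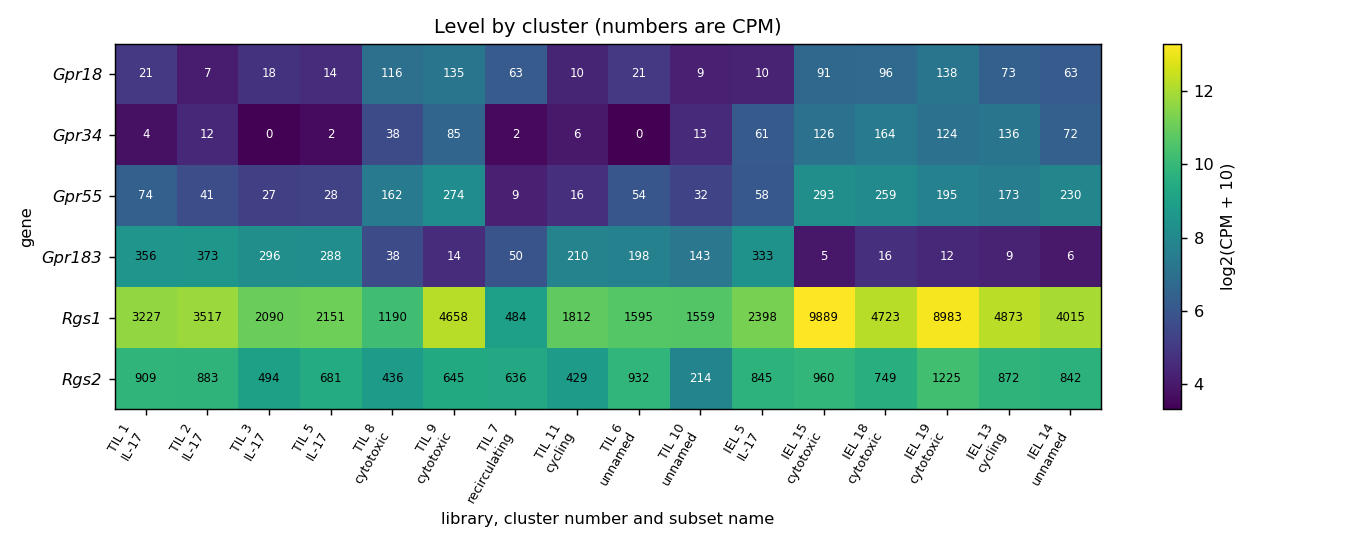
Level of 6 of the genes in each T cell-like cluster with at least 50 cells of a library, TIL clusters on the left and IEL clusters on the right; colour is log2(CPM + 10) and the printed number is CPM rounded to a whole number. Gpr183 is high in the IL-17-like columns of both libraries (288 to 373 CPM in TIL, 333 CPM in IEL), and Gpr18, Gpr34 and Gpr55 are high in cytotoxic-like columns. In IEL this is not particular to cytotoxic-like columns. There Gpr34 is 136 CPM in cycling-like cluster 13 (124 to 164 CPM in cytotoxic-like columns). Gpr55 is 230 CPM in cluster 14 of unnamed subset (195 to 293 CPM in cytotoxic-like columns).

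Across clusters of at least 50 cells, Gpr183 ranged from 14.1 CPM (cytotoxic-like cluster 9) to 373 CPM (IL-17-like cluster 2) in TIL and from 5.42 CPM (cytotoxic-like cluster 15) to 333 CPM (IL-17-like cluster 5) in IEL. The TIL cytotoxic-like cluster 9 had the highest TIL levels of Gpr55 (274 CPM), Gpr18 (135 CPM), Gpr34 (84.5 CPM) and Rgs1 (4658 CPM), and cluster 8, the other cytotoxic-like TIL cluster, had 162 CPM of Gpr55, 116 CPM of Gpr18, 38.4 CPM of Gpr34 and 1189.8 CPM of Rgs1. Cluster 9 was also the richer in Cd8a (1467 CPM in cluster 9, 402 CPM in cluster 8). In IEL clusters Gpr18 ranged from 9.61 CPM (cluster 5) to 138 CPM (cluster 19), Gpr34 from 60.8 CPM (cluster 5) to 164 CPM (cluster 18) and Gpr55 from 57.6 CPM (cluster 5) to 293 CPM (cluster 15), so all were lowest in the IL-17-like cluster.

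Recirculating-like TIL cells, which carry Ccr7 and S1pr1, had a Gpr18 level between those of TIL IL-17-like (13.7 CPM) and cytotoxic-like cells (122 CPM), with little Gpr34 or Gpr55. In these 712 cells Gpr18 stood at 63.2 CPM (55.5 to 71.7) with Gpr55 at 8.65 CPM (5.95 to 12.1) and Gpr34 at 1.83 CPM (0.738 to 3.78), and Gpr18 was found in 9.92% of them at 2000 UMIs. Their Rgs1 level, 484 CPM, was the lowest of any TIL cluster, and their Rgs2 level, 636 CPM, was close to the median TIL cluster (641 CPM). Gpr55 was lowest of all TIL clusters in these cells. At a finer cluster resolution (Leiden 2.0) 2 clusters were given this name: 1 of 708 TIL cells, again led by genes such as Ccr7 and S1pr1, and 1 of 401 TIL cells, led by genes such as Tmem158, Kit and Xcl1. Both clusters summed had 63.1 CPM of Gpr55, 10.8 CPM of Gpr34, 69.7 CPM of Gpr18 and 740 CPM of Rgs1.

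Rgs1 was highest in IEL cytotoxic-like clusters 15 (9889 CPM) and 19 (8983 CPM), and was 4723 CPM in cluster 18. The stress list summed to 12385 CPM in cluster 15, 31967 CPM in cluster 19, which is led by heat shock genes, and 12379 CPM in cluster 18. Its part in these Rgs1 levels was not tested. Rgs2 was the most even of the genes over IEL clusters, from 749 CPM in cluster 18 to 1225 CPM in cluster 19, 1.64-fold, whereas it ranged 4.35-fold over TIL clusters, from 214 CPM in the haemoglobin-led cluster 10 to 932 CPM in cluster 6, an unnamed subset led by genes such as Foxp3 and Cd4.

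Cycling-like cells came from different clusters in the libraries: 127 of 142 TIL cells lay in cluster 11, which held 0 IEL cells, and all 96 IEL cells lay in cluster 13. Il17a stood at 3658 CPM in TIL cluster 11 against 0.659 CPM in IEL cluster 13. In 142 TIL and 96 IEL cycling-like cells, Gpr183 was at 189 CPM in TIL against 9.22 CPM in IEL (log2 ratio 4.36, 3.60 to 5.24), Gpr34 at 11.2 CPM in TIL against 136 CPM in IEL (-3.60, -4.22 to -3.02), and Gpr55 at 19.6 CPM in TIL against 173 CPM in IEL (-3.14, -3.61 to -2.69). Gpr18 was at 17.6 CPM in TIL against 73.1 CPM in IEL cycling-like cells (-2.05, -2.59 to -1.54).

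**Figure D4:**
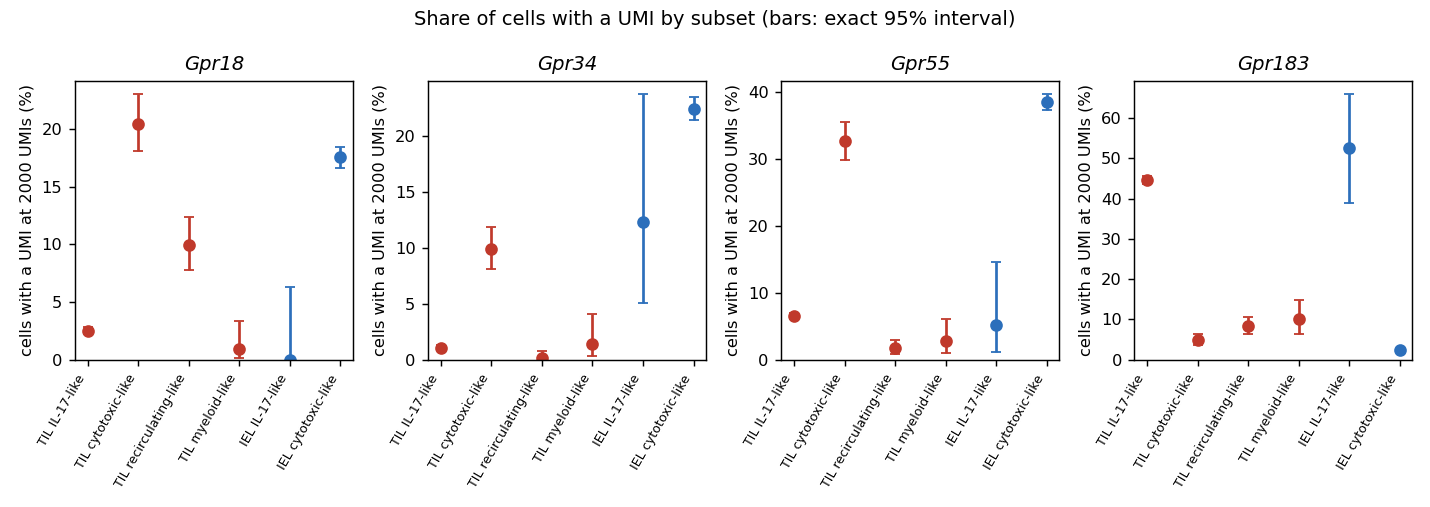
Share of cells with a UMI of 4 receptor genes after thinning every cell to 2000 UMIs, in TIL subsets (red) and IEL subsets (blue), with exact Clopper-Pearson 95% intervals. Gpr183 was found in 44.5% of TIL against 52.6% of IEL IL-17-like cells, and the myeloid-like column gives the share in cells of another kind.

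At the depth of 2000 UMIs, single cells seldom showed all of Gpr18, Gpr34 and Gpr55. All 3 were found in 4 of 1065 TIL cytotoxic-like cells (0.376%) and in 107 of 6742 IEL cytotoxic-like cells (1.59%), and none of them in 48.9% of TIL against 39.2% of IEL cytotoxic-like cells. Of TIL cytotoxic-like cells with a Gpr34 UMI, 37.1% (27.9 to 47.1) also had a Gpr55 UMI, against 32.7% of all TIL cytotoxic-like cells. Of IEL cytotoxic-like cells with a Gpr34 UMI, 37.7% (35.3 to 40.2) had a Gpr55 UMI, against 38.6% of all.

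Over the 18 sums of 1 library and 1 cluster, Gpr34 and Gpr55 had a Pearson correlation of log2(CPM + 10) of 0.86, Gpr18 and Gpr55 of 0.776, and Gpr183 was inverse to all, at -0.831 with Gpr18, -0.791 with Gpr34 and -0.732 with Gpr55. These sums share 2 libraries and their depth, and the values are descriptions. The genes most alike to Gpr183 were the co-stimulatory receptor Icos (0.982), the cytokine signalling inhibitor Cish (0.978) and the kinase gene Mapkapk3 (0.977). Those most alike to Gpr34 were Mlycd (0.958), Lmtk3 (0.954) and Tbx21 (0.953), which encodes the transcription factor T-bet. For Gpr18 they were Trat1 (0.949), Las1l (0.933) and the IL-12 receptor gene Il12rb2 (0.931), for Gpr55 Rnf146 (0.946), Fbxw4 (0.941) and Ncald (0.934), for Rgs1 Vcpkmt (0.908), Tmco6 (0.907) and Slc2a8 (0.903), and for Rgs2 Ubald2 (0.868), Zfp868 (0.862) and Ccdc174 (0.842).

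The other genes of the pathway are read against the shares over all genes in TIL over IEL cells, 11.1% higher and 13.8% lower, and the median log2 ratio of -0.10. Of 40 other receptor genes listed, 16 were measured, with 7 higher and 3 lower and a median log2 ratio of 0.79. The largest differences were those of Cysltr1 (7.55), a receptor for cysteinyl leukotrienes, Ltb4r1 (7.32), a receptor for leukotriene B4, and Ptger2 (4.37), a prostaglandin E2 receptor. Ltb4r1 stood at 185 CPM in TIL against 1.16 CPM in IEL cells.

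Other Rgs genes did not share 1 direction: of 8 measured, 2 were higher and 2 lower, with a median of -0.28 against -0.10 over all genes, and with Rgs16 at 61.1 CPM in TIL against 12.8 CPM in IEL cells (log2 ratio 2.25), Rgs3 at 21.2 CPM in TIL against 82.3 CPM in IEL cells (-1.95), and Rgs14 at 10.6 CPM in TIL against 35.7 CPM in IEL cells (-1.76). Of 14 measured G protein subunit genes, 4 were higher and 0 lower in TIL, with a median of 0.53 against -0.10 over all genes (11.1% higher, 13.8% lower), and the largest differences at Gng12 (3.36), Gna15 (1.58) and Gnaq (1.13). Of 4 measured receptor kinase and arrestin genes, Arrb1 (1.37) was higher and Arrb2 (-1.54) and Grk6 (-1.11) were lower. Of 15 effector genes, 3 were higher and 3 lower, with a median of -0.10 against -0.10 over all genes; they included Plcb4, a phospholipase C, at 81.8 CPM in TIL against 0.674 CPM in IEL cells (6.92), Crem at 1.49 and Pde7a at -1.49. None of the 5 measured genes for enzymes that make or break down receptor ligands was 2-fold apart; Ddhd2 (-0.79), Abhd12 (0.52) and Ddhd1 (0.51) differed most. Within Cd8a-positive cells, G protein subunits had 0 higher and 0 lower of 13 measured, and other receptors 2 higher and 1 lower of 13, against 4.37% higher and 4.92% lower over all genes. A count of 0 among 13 genes is close to these shares.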

How the data were processed

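Matrices of whole-number UMI counts per gene and barcode were deposited by the authors, with no normalization, per the file headers; Cell Ranger 6.1.1 and mm10 are named by the submitters' processing notes. How barcodes were called as cells, and whether counting used strand or introns, are not given in the sources used here. Barcodes with 500 or more genes, 1000 or more UMIs and no more than 10% mitochondrial UMIs were used (93.7% of TIL and 97.1% of IEL barcodes). Cells of both tissues entered 1 clustering, with no correction for library because tissue and library cannot be told apart (Scanpy 1.11.5, igraph 0.11.9; 2000 variable genes, 30 principal components, 15 neighbours, Leiden resolution 1.0, 19 clusters). The variable genes held none of the 7 genes, Cd8a, Cd8b1, receptor segments, or sex-linked, haemoglobin, immunoglobulin and mitochondrial genes. Clusters were named from marker lists; a type other than T cell also needed Cd3 genes at under 0.5 times their level over all cells, and clusters whose leading genes went against a subset, or with a median Scrublet score over 0.2, were left unnamed. These naming rules were chosen after the data were seen. Scrublet called 0 TIL and 2 IEL doublets, which was taken as not working, so none were removed.

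UMIs were summed per set of cells and given as CPM with exact Poisson intervals; the interval of a ratio is exact, given the total of both sides, and shares have Clopper-Pearson intervals after thinning to 2000 UMIs. Counts of 0 were given a floor of 3 UMIs. The code was tested on simulated data. No p-value was computed, and no count test was run, since each group had 1 library. Named genes were the 7 genes, the checks Cd8a, Cd8b1, Trdc, Trac and Cd4, the 3 measured genes of each list with the largest ratio, and the 3 genes most alike to each; Il17a, Fos, the genes that lead a cluster and genes overlapping the 7 were named after their values were seen. The 7 genes and the lists were chosen with earlier results of these data known. Positions are GRCm38, and sequences are from RefSeq. Alternatives covered filters, cell rules, scaling, thresholds, the Cd8a split, depth and cluster resolution.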

Additional observations from a re-analysis of the deposited data

Results flagged for a closer look

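Rgs2 differed in opposite directions between Cd8a-positive and Cd8a-zero cells of the 2 libraries, with a log2 ratio of -0.429 in TIL and 0.0855 in IEL cells. Both ratios are under 2-fold and rest on 1 library each, and the difference between them was not tested. In TIL, Rgs2 stood at 523 CPM in Cd8a-positive and 704 CPM in Cd8a-zero cells, and in IEL at 897 CPM in Cd8a-positive and 845 CPM in Cd8a-zero cells.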

How the results depend on the processing

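No paired analysis was possible because each group had 1 library. Of the alternatives, leaving out droplets over 2 times the median UMIs, using cytotoxic-like clusters only, and leaving out either the heat shock cluster or the Foxp3 and haemoglobin clusters were chosen after seeing the data. Using cytotoxic-like clusters only reversed Gpr18 in TIL over IEL cells (log2 ratio 0.27), left the Gpr183 ratio of the TIL Cd8a split at 0.25 with an interval that included 0 (-0.17 to 0.68), and left 2 of 6 genes lower in TIL over IEL cells, 0 lower in the TIL Cd8a split and 0 higher in TIL over IEL Cd8a-zero cells. Over all genes, that alternative called 325 of 6045 lower in TIL over IEL cells and 83 of 5735 lower in the TIL Cd8a split. It called 229 of 6113 genes higher in TIL over IEL Cd8a-zero cells, and compares fewer kinds of cell by construction. Splitting TIL cells on Cd8b1, found in 144 TIL and 601 IEL cells, left Gpr55 at -0.45 with an interval that included 0 (-0.99 to 0.04). It gave 1 gene higher and 2 lower, against 282 higher and 571 lower of all 5767 genes measured. It also left Gpr34 under 2-fold (0.73), and in TIL over IEL cells with a Cd8b1 UMI gave Gpr55 at -2.69 and Gpr34 at -3.47. Of these 144 TIL cells, 37 also had a Cd8a UMI, and recirculating-like cells held 227 of the 380 TIL Cd8b1 UMIs. Thinning to 1000 or 4000 UMIs, or not thinning, kept the direction of all 7 shares between TIL and IEL, for example Gpr34 at 0.982% of TIL against 11.3% of IEL cells at 1000 UMIs. A 1.5-fold threshold gave 1 gene higher in the IEL Cd8a split, Rgs1, against 122 higher and 90 lower of all 5935 genes measured. With the median gene ratio set to 1, 787 genes were higher and 754 lower in TIL over IEL cells, and without ribosomal and mitochondrial genes 701 were higher and 1145 lower, against 701 and 876. The counting error is small for genes above 20 CPM, and the spread between animals is unknown; Gpr15 and the 57 IEL IL-17-like cells are limited by their number of UMIs.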
